A study of Mus musculus with 10 samples.

Results

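The NuRD complex (nucleosome remodelling and deacetylase) was followed at the transcript level through the first week of reprogramming of mouse embryonic fibroblasts, as the expression of 10 genes for its subunits: Chd3, Chd4, Mta1, Mta2, Mta3, Hdac1, Hdac2, Mbd2, Mbd3 and Gatad2a. The genes were taken by symbol from the 54752 genes of the deposited tables, all 10 were found, and all 10 were among the 12752 genes with enough reads to be tested. Primary fibroblasts (MEFs) of passage 2 came from E13.5 embryos of Oct4-GFP transgenic males (CBA/CaJ × C57BL/6J) and 129S4/SvJaeJ females. All cultures had received retroviruses for Jdp2, Sall4, Esrrb and Glis1 for 48 hours and were then kept in iCD3 medium for 0, 24, 72, 120 or 168 hours, here D0, D1, D3, D5 and D7. Each day had 2 messenger RNA libraries, numbered replicate 1 and 2, 10 libraries in all, described in the series text as coming from separate experiments. Every day, D0 included, carried the 4 viruses, so D0 is an infected culture before the medium change and not an untouched fibroblast.

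NuRD couples a DNA-dependent ATPase of the CHD family, which slides nucleosomes, with the histone deacetylases HDAC1 and HDAC2. The MTA proteins form its scaffold and hold the deacetylases, the histone chaperones RBBP4 and RBBP7 bind beside them, MBD2 or MBD3 joins the MTA core to the CHD ATPase through GATAD2A or GATAD2B, and MBD2, unlike MBD3, binds methylated CpG strongly. Most positions can be filled by one of several paralogues, and MBD2 and MBD3 exclude each other from a complex. SALL4, one of the 4 delivered factors, recruits NuRD through a short motif at its N terminus, and the part of the complex in the making of pluripotent cells has been studied through MBD3.

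The libraries of replicate 1 held 2176457 to 4335931 counts, those of replicate 2 held 1329377 to 1492105, and the NuRD subunit genes had between 64 and 2691 counts each in a library. Levels are given as CPM, counts scaled to a common library total, or as TPM, which also divide by transcript length, where genes are compared with each other. Fibroblast markers, 9 of 9 with counts on every day, summed to 18456 and 21629 CPM at D0, 4735 and 7123 at D1 and 2456 and 3547 at D7 (replicates 1 and 2). Pluripotency markers summed to 7.83 and 14.2 CPM at D0, with Tdgf1 at 0, and to 1494 and 1164 CPM at D7, with 7 of 7 detected. Endothelial markers summed to 131 and 138 CPM and neural markers to 103 and 87.4 CPM at D7, skeletal muscle markers went from 220 and 293 CPM at D0 to 17.2 and 27.6 at D7, and the macrophage, erythroid and keratinocyte lists stayed at or below 16.6 CPM in every library. The part of these shifts in the results below was not tested, and in such bulk samples fewer cells of a type and less RNA per cell cannot be told apart.

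Over the 5 days 9 of the 10 subunit genes spanned less than the median tested gene. The distance between the highest and the lowest day mean of log2 CPM had a median of 0.52 over the 10 genes and of 1.04 over all tested genes. It was below 1 for 9 of the 10 genes and for 47.7% of tested genes. Many tested genes had fewer reads than these 10, and whether genes of similar read number spanned as little was not tested. The widest spans belonged to Chd3 (1.34), Mta3 (0.99) and Hdac1 (0.90), and Hdac2 (0.29) had the narrowest. In a test for any difference among the 5 days (edgeR, adjusted p under 0.05), 1 of the 10 genes, Chd3, was called, beside 19.1% of all tested genes. When the replicate number was added to the model, which took shifts shared by the libraries of a number out of the error, 2 of the 10 were called, Chd3 and Hdac1, beside 34.9% of all tested genes.

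**Figure D1:**
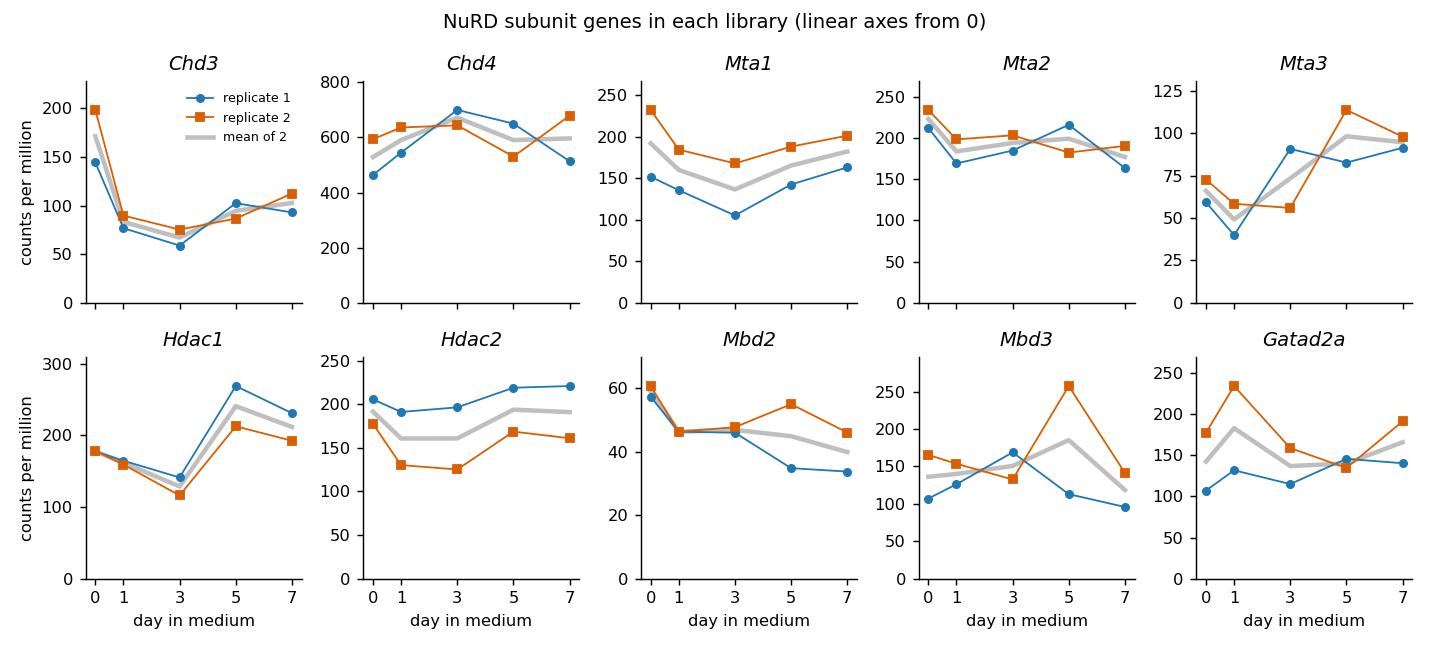
CPM (vertical axes, linear, from 0) of the 10 NuRD subunit genes against the day in medium, with replicate 1 as circles, replicate 2 as squares and the mean of the 2 as a grey line. Chd3 was highest in the 2 D0 libraries and Hdac1 was lowest at D3 and highest at D5 in both replicates.

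Chd3 (ENSMUSG00000018474, chromosome 11, 69343273 to 69369406, minus strand, GRCm38) encodes one of the CHD ATPases and was the subunit gene with the largest change. Its libraries were at 144 and 198 CPM at D0, 76.7 and 89.6 at D1, 58.8 and 75.3 at D3, 102 and 86.6 at D5, and 92.9 and 112 at D7. Both D0 libraries lay above the other 8. The any-day call had an adjusted p of 0.0362 (edgeR; 0.00549 with the replicate number in the model). It was lost when any 1 of the D0, D1, D3 or D7 libraries was left out, and in another test, limma on log2 TPM (adjusted p 0.308).

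The Chd3 difference lay mainly in the first day. From D0 to D1 the log2 change was -1.04 (SE 0.29, 95% interval -1.68 to -0.41), with -0.91 in replicate 1 and -1.14 in replicate 2. Its adjusted p was 0.0717 in edgeR, 0.0141 with the replicate number in the model and 0.0349 in DESeq2, so the call depended on the model. By edgeR 0 of the 10 genes were called for D1 against D0, where 4.52% of tested genes were, and 1 of 10 (Chd3) with the replicate number, where 10.6% were. At an unadjusted p under 0.05 the count was 1 of 10, beside 17.0% of all tested genes. DESeq2 called 1 of 10, beside 6.04%. For limma-voom the count was 0 of 10, with 207 of all tested genes called higher and 338 lower. In the same interval the summed fibroblast markers went from 18456 and 21629 to 4735 and 7123 CPM. From D1 to D3 the change of Chd3 was -0.31 (SE 0.29, adjusted p 0.912), and from D3 to D5 it was 0.51 (SE 0.29, adjusted p 0.543). D7 stood at -0.74 against D0 (SE 0.29, adjusted p 0.100, and 0.0326 with the replicate number), with -0.63 and -0.82 in the replicates.

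Chd4 (ENSMUSG00000063870, chromosome 6, 125095981 to 125130591, plus strand) encodes the other CHD ATPase of the complex. It was at 464 and 594 CPM at D0, 545 and 636 at D1, 699.7 and 644 at D3, 650.0 and 530.4 at D5, and 514 and 679 at D7. The days overlapped, and the lowest and highest libraries, D0 and D3 of replicate 1, differed 1.51-fold. For D7 against D0 the log2 change was 0.17 (SE 0.28, 95% interval -0.45 to 0.80, adjusted p 0.730), an interval that leaves room for changes of under 2-fold either way. Small RNA genes that lie inside Chd3 and Chd4 had 0 counts in these tables.

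**Figure D2:**
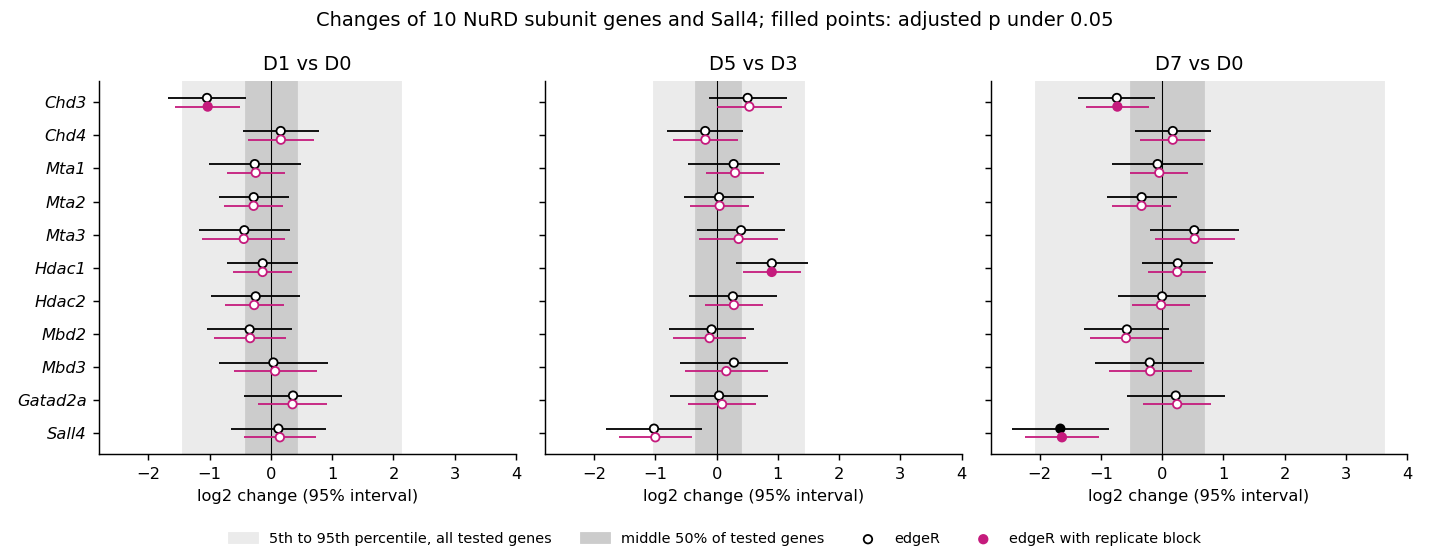
Log2 changes (horizontal axes, with 95% intervals) of the 10 NuRD subunit genes and Sall4 for D1 against D0, D5 against D3 and D7 against D0, by edgeR (black) and with the replicate number in the model (magenta), filled where the adjusted p was under 0.05. Grey bands give the middle 50% and the 5th to 95th percentile of all tested genes. For D7 against D0 all 10 subunit genes lay within the wider band, and Chd3 (-0.74) and Mbd2 (-0.58) lay outside the narrower.

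The scaffold genes showed no call. Mta1 (ENSMUSG00000021144, chromosome 12, 113098278 to 113137206, plus strand), the founding member of the metastasis-associated family, was at 152 and 232 CPM at D0, 135 and 184 at D1, 105 and 168 at D3, 142 and 188 at D5, and 163 and 201 at D7. Replicate 2 was above replicate 1 on all 5 days. Mta2 (ENSMUSG00000071646, chromosome 19, 8941875 to 8952303, plus strand) was at 212 and 234 CPM at D0, 169 and 199 at D1, 185 and 203 at D3, 216 and 182 at D5, and 164 and 191 at D7. Its extremes differed 1.43-fold, the narrowest span in CPM among the 10 genes. For D7 against D0 the log2 changes were -0.076 (SE 0.34, 95% interval -0.82 to 0.67) for Mta1 and -0.34 (SE 0.26, interval -0.91 to 0.23) for Mta2. With the replicate number in the model the intervals were -0.52 to 0.42 (SE 0.21) for Mta1 and -0.82 to 0.15 (SE 0.22) for Mta2.

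Mta3 (ENSMUSG00000055817, chromosome 17, 83706163 to 83821516, plus strand), first known as an oestrogen-dependent member of the family, had the lowest counts of the scaffold genes. It was at 59.2 and 72.6 CPM at D0, 39.9 and 58.3 at D1, 90.7 and 55.9 at D3, 82.6 and 114 at D5, and 91.4 and 97.9 at D7. All 4 libraries of D5 and D7 lay above all 4 of D0 and D1, while the D3 libraries lay on either side. The largest step between neighbouring days was from D1 to D3 in replicate 1 (log2 change 1.17, against -0.06 in replicate 2) and from D3 to D5 in replicate 2 (1.01, against -0.13 in replicate 1). Across days its adjusted p was 0.192 (edgeR; 0.0756 with the replicate number), and D7 differed from D0 by 0.52 (SE 0.33, 95% interval -0.21 to 1.25, adjusted p 0.324).

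Hdac1 (ENSMUSG00000028800, chromosome 4, 129516104 to 129542713, minus strand) encodes one of the catalytic deacetylases, which NuRD shares with the SIN3 and CoREST complexes. It was at 178 CPM in both D0 libraries, 165 and 159 at D1, 141 and 116 at D3, 269 and 213 at D5, and 231 and 193 at D7. D3 was the lowest day and D5 the highest in each replicate, and the 4 libraries of D5 and D7 lay above the 6 earlier ones. From D3 to D5 the log2 change was 0.90 (SE 0.27, 95% interval 0.32 to 1.49), a 1.87-fold difference, with 0.92 and 0.87 in the replicates. Its adjusted p was 0.220 by edgeR, where 0 of the 10 genes and 0.0706% of all tested genes were called. With the replicate number in the model it was 0.0399, where 1 of 10 and 3.3% of all tested genes were called. At an unadjusted p under 0.05 the count was 1 of 10, beside 11.8% of all tested genes. DESeq2 and limma-voom called 0 of 10, and only 151 and 4 of all tested genes.

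At D7 Hdac1 stood 0.72 above D3 on the log2 scale (SE 0.26, adjusted p 0.135 by edgeR and 0.0359 with the replicate number), with 0.71 and 0.72 in the replicates. For this pair of days edgeR called 0 of the 10 genes and 5.37% of all tested genes, and with the replicate number 1 of 10 and 18.4%. Unadjusted, 1 of 10 was under 0.05, beside 23.2% of all tested genes. DESeq2 called 0 of 10, with 515 of all tested genes called higher and 476 lower. For limma-voom the count was 0 of 10, with 545 called higher and 377 lower. Against D0 the D7 level was 0.25 higher (SE 0.26, interval -0.33 to 0.83). Over all days the adjusted p was 0.148, and 0.0337 with the replicate number. A processed pseudogene, Gm10093, matches 1444 bases of the Hdac1 transcript at 99.4% and held 57.5 estimated counts over all libraries, so a small part of the Hdac1 reads may be shared between them. Another gene, AC125456.1, matches 1450 bases at 96.3% but has no entry among the counted genes, so its part in the Hdac1 reads is not known.

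Hdac2 (ENSMUSG00000019777, chromosome 10, 36974544 to 37001889, plus strand), the partner deacetylase, was at 205 and 177 CPM at D0, 191 and 130.2 at D1, 196 and 125 at D3, 219 and 169 at D5, and 221 and 161 at D7. Replicate 1 was above replicate 2 on all 5 days, and the days overlapped. D7 and D0 were level, with a log2 difference of -0.0016 (SE 0.33, 95% interval -0.72 to 0.72, adjusted p 0.998), whose sign changed with the scaling. With the replicate number in the model the difference was -0.019 (SE 0.21, interval -0.50 to 0.46).

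Of the MBD subunits, Mbd2 (ENSMUSG00000024513, chromosome 18, 70568189 to 70626131, plus strand) was at 57.2 and 60.6 CPM at D0, 46.3 and 46.2 at D1, 45.9 and 47.7 at D3, 34.8 and 54.9 at D5, and 33.7 and 46.0 at D7. Both D0 libraries were above the other 8 in CPM, but not in TPM. Per length, D0 was at 49.6 and 47.9 TPM, D1 replicate 1 at 59.9 and D7 replicate 2 at 50.1. On counts the D7 difference of Mbd2 from D0 was -0.58 (SE 0.31, 95% interval -1.27 to 0.12, adjusted p 0.249), with -0.75 and -0.39 in the replicates. Mbd3 (ENSMUSG00000035478, chromosome 10, 80392539 to 80399550, minus strand) was at 107 and 165 CPM at D0, 126 and 154 at D1, 169 and 133 at D3, 113 and 257 at D5, and 95.9 and 141 at D7. The high value was that of a single library, D5 replicate 2, while D5 replicate 1 was below its own D3. Its D7 difference from D0 was -0.20 (SE 0.40, interval -1.09 to 0.69, adjusted p 0.783).

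Gatad2a (ENSMUSG00000036180, chromosome 8, 69907076 to 69996384, minus strand), which ties the MBD protein to the CHD ATPase, was at 107 and 177 CPM at D0, 132 and 234 at D1, 115 and 159 at D3, 146 and 135 at D5, and 140.3 and 191 at D7. Replicate 2 was the higher on every day but D5, and the days overlapped. D7 and D0 differed by 0.22 (SE 0.36, interval -0.58 to 1.02, adjusted p 0.732). With the replicate number in the model the difference was 0.24 (SE 0.25, interval -0.31 to 0.80).

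Over the whole course, D7 against D0, edgeR called 0 of the 10 subunit genes, where 17.9% of all tested genes were called. With the replicate number 1 of 10 (Chd3) was called, where 28.5% were. The unadjusted p was under 0.05 for 1 of 10, beside 31.1% of all tested genes. DESeq2 called 0 of 10, with 1111 of the 12752 tested genes called higher and 1115 lower. For limma-voom the count was 0 of 10, with 1107 called higher and 1204 lower. All 10 changes were smaller than 2-fold, as were those of 68.2% of tested genes, and the median absolute log2 change was 0.24 for the 10 genes and 0.59 for all tested genes. The smallest change that edgeR called in this comparison was 0.80. Tested genes of similar read number were not compared separately. For D3 against D1 and D7 against D5 edgeR called 0 of the 10 genes, and 0.0549% and 0.0% of all tested genes. At an unadjusted p under 0.05 the counts were 0 of 10, beside 8.49% and 6.35%. DESeq2 and limma-voom called 0 of 10 for both pairs of days. Among all tested genes DESeq2 called 128 and 26, and limma-voom called 1 for D3 against D1.

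Per length, none of the 10 genes was separate from its neighbour in level. Median TPM over the 10 libraries was 148 for Mbd3, 140.4 for Hdac2, 139.6 for Chd4, 133 for Hdac1, 94.3 for Mta2, 87.2 for Mta1, 74.3 for Mta3, 63.6 for Gatad2a, 44.8 for Mbd2 and 44.3 for Chd3. The ranges of all neighbours in that order overlapped. Hdac1 was above Mta2, and Mta1 above Mta3, in 9 of 10 libraries, whereas Chd4 and Hdac1, or Mta2 and Mta1, each led in 5 of 10. The widest range was that of Chd3, 22.9 to 103 TPM, a 4.49-fold span.

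The paralogues that can fill one position of the complex were then compared within each library. Chd3 made up 32.1% and 43.5% of the summed Chd3 and Chd4 TPM at D0, 21.6% and 22.5% at D1, 11.99% and 22.2% at D3, 23.3% and 22.3% at D5, and 24.6% and 27.8% at D7. Chd4 was the more abundant in all 10 libraries, and the Chd3 share of both D0 libraries was above that of the other 8. In an exact permutation test of the log2 TPM ratio over the days (945 arrangements, n = 2 a day, smallest possible p 0.00106) p was 0.00952, and 0.0667 after adjustment over the 7 ratios tested.

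TPM divide by an effective length, an average over isoforms. For Chd3 this length ran from 2180 to 3584 bases between libraries, and was 3558 bases in D3 replicate 1 and 2180 in D3 replicate 2. On counts, which do not use it, the replicates lay closer: the log2 ratio of Chd3 to Chd4 counts was -1.68 and -1.58 at D0, -2.83 and -2.82 at D1, -3.57 and -3.09 at D3, -2.66 and -2.61 at D5, and -2.47 and -2.59 at D7. The same exact permutation test gave p = 0.00106 on counts, the smallest it can give, and 0.00741 after adjustment. With arrangements kept within a replicate number (120 arrangements, smallest possible p 0.00833) the exact p was 0.0167 on TPM, 0.117 after adjustment, and 0.00833 on counts, 0.0583 after adjustment. The Chd3 share was thus lower after D0 in both replicates and on both scales. After adjustment only the test on counts over all arrangements passed 0.05, and within replicate numbers 1 ratio alone cannot reach an adjusted p below 0.0583.

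**Figure D3:**
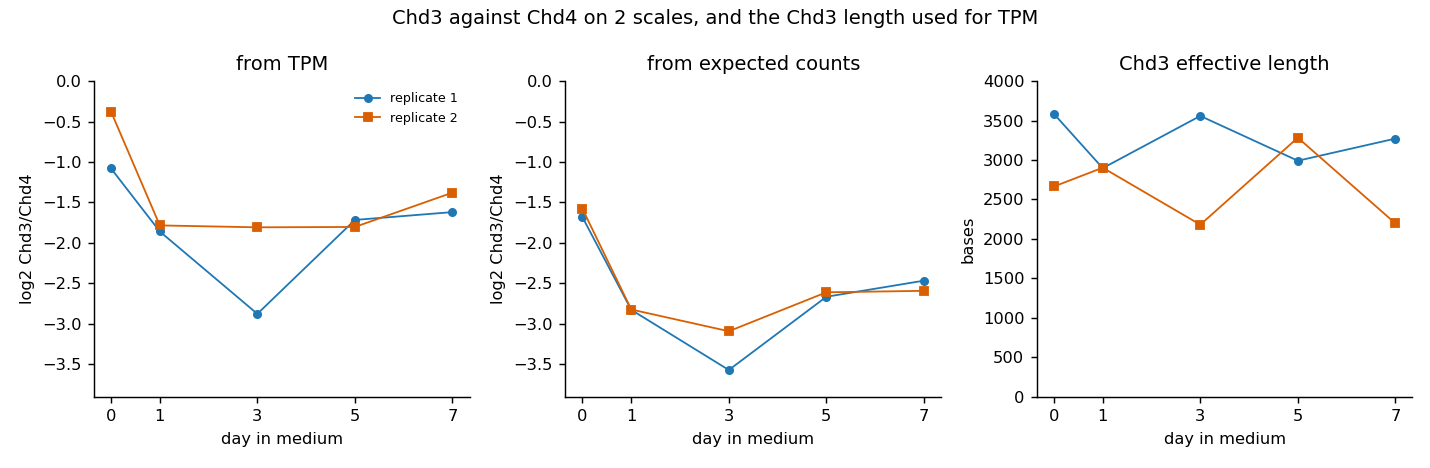
Log2 ratio of Chd3 to Chd4 from TPM (left) and from expected counts (middle) and the effective length of Chd3 in bases (right) against the day in medium, replicate 1 as circles and replicate 2 as squares. D0 has the highest ratio on both scales in both replicates, and the replicates separate at D3 more on TPM, where their effective lengths are 3558 and 2180 bases, than on counts.

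The other positions showed no call. Hdac1 held 48.2% and 49.7% of the summed Hdac1 and Hdac2 TPM at D0, 44.5% and 54.1% at D1, 43.8% and 45.8% at D3, 55.2% and 54.3% at D5, and 50.5% and 54.6% at D7. The deacetylases were thus nearly even in every library, and the exact permutation p over the days was 0.188 (adjusted 0.4, n = 2 a day). The 2 D1 libraries lay furthest apart, and leaving either out removes that spread from the error of the test, so such fits cannot decide. On counts within replicate numbers the exact permutation p was 0.0417 (adjusted 0.146). Mbd2 held 17.3% to 30.2% of the MBD pair, always less than Mbd3. For a difference of this ratio between days the exact permutation p was 0.730 (n = 2 a day). The effective length of Mbd2 varied from 1092 to 1754 bases.

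Within the MTA genes the shares of Mta1, Mta2 and Mta3 were 35.4%, 42.9% and 21.7% in D0 replicate 1 and 41.9%, 35.3% and 22.8% in D0 replicate 2. At D7 they were 35.6%, 34.0% and 30.4% in replicate 1 and 38.3%, 32.3% and 29.4% in replicate 2. Mta3 thus held 17.2% to 23.3% of the family at D0 and D1 and 28.4% to 34.7% at D5 and D7, with 35.5% and 21.9% at D3. The exact permutation tests gave p = 0.277 for Mta3 against Mta1, 0.286 for Mta3 against Mta2 and 0.547 for Mta1 against Mta2 (n = 2 a day). For Mta3 against Mta1 the 2 D3 libraries lay far apart, at log2 TPM ratios of 0.54 (replicate 1) and -0.76 (replicate 2). Leaving either out removes that spread from the error of the test, so such fits cannot tell whether the ratio moved.

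**Figure D4:**
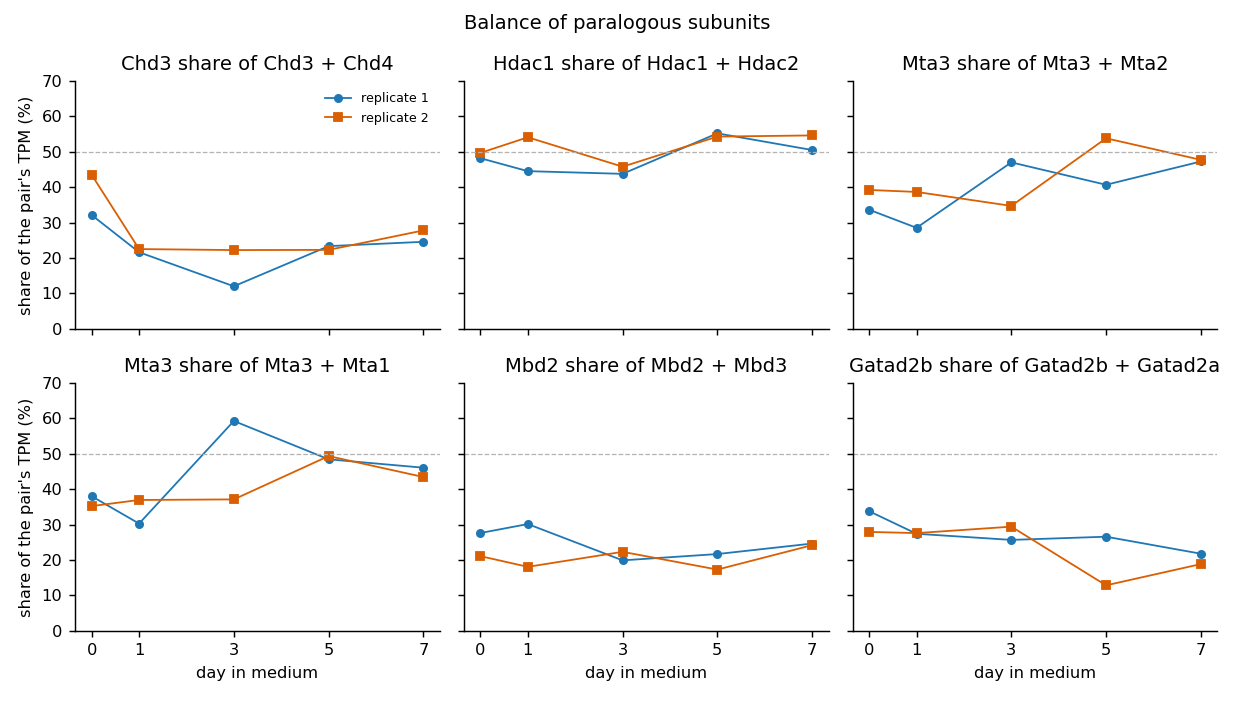
Share of the first gene in the summed TPM of 6 pairs of paralogues (vertical axes, percent) against the day in medium, replicate 1 as circles and replicate 2 as squares, with a dashed line at even shares. The Chd3 share is highest at D0 in both replicates, the Hdac1 share stays between 43.8% and 55.2%, and the Mta3 shares separate between replicates at D3.

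Other subunits of the complex were taken from a list of 8 genes. Rbbp4 (ENSMUSG00000057236, chromosome 4, 129307100 to 129335370, minus strand), a histone-binding chaperone, was at 240.2 and 240.3 CPM at D0, 205 in both D1 libraries, 159 and 167 at D3, 328 and 256 at D5, and 299 and 249 at D7. Like Hdac1, it was lowest at D3 and highest at D5 in both replicates. It stood 0.75 higher at D7 than at D3 (SE 0.26, adjusted p 0.115 by edgeR and 0.0336 with the replicate number), and over all days its adjusted p was 0.160, and 0.0471 with the replicate number. Rbbp7, its paralogue, was at 254 to 436 CPM (D7 against D0: 0.45, SE 0.29, adjusted p 0.343).

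Gatad2b, the paralogue of Gatad2a, was at 73.6 to 93.9 CPM in 9 libraries and at 37.9 in D5 replicate 2. It held 12.8% to 33.8% of the pair's TPM (exact permutation p over the days 0.232, n = 2 a day). At D5 the share was 26.6% in replicate 1 and 12.8% in replicate 2, and leaving either out removes that spread from the error of the test. Cdk2ap1, a small subunit also called DOC1, was at 225 and 257 CPM at D0 and 136 and 166 at D7 (log2 change -0.68, SE 0.30, adjusted p 0.151), and its relative Cdk2ap2 was at 11.9 to 50.3 CPM. Chd5, a CHD ATPase of neurons and testis, had at most 14 counts in a library, Mbd3l2 had 1 count in each of 2 libraries and Mbd3l1 had 0 in all 10. Of the 5 tested genes of this list 0 were called in any comparison by edgeR. Among all tested genes the edgeR shares were 19.1% over all days and 17.9% for D7 against D0. With 5 genes, a count of 0 does not set the list apart from those shares. With the replicate number Rbbp4 alone was called, over all days and for D7 against D3, where 34.9% and 18.4% of all tested genes were.

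By class, the summed TPM was 130 to 261 for the CHD genes, 192 to 313 for the MTA genes, 183 to 401 for Hdac1 and Hdac2, 163 to 268 for the MBD genes, 266 to 477 for Rbbp4 and Rbbp7 and 50.1 to 126 for the GATAD2 genes. The lowest CHD and GATAD2 sums were both those of D5 replicate 2, which also had the highest MBD sum.

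Sall4 (ENSMUSG00000027547, chromosome 2, 168748332 to 168767943, minus strand), the delivered partner of NuRD, was measured as viral and endogenous reads together. These were not separated, so the total cannot show how much of the delivered factor a library held. Sall4 was at 830.3 and 843 TPM at D0, 1006 and 836 at D1, 581 and 973 at D3, 393 and 352 at D5, and 306 and 232 at D7. In counts it fell from D0 to D7 by 1.66 on the log2 scale (SE 0.36, adjusted p 0.00959 by edgeR). That call was lost without D0 replicate 2, D7 replicate 1 or D7 replicate 2, with adjusted p values of 0.0764, 0.0812 and 0.0646. The summed TPM of the 10 subunit genes stayed between 861 and 1138. The ratio of Sall4 TPM to that sum was 0.865 and 0.752 at D0, 1.11 and 0.890 at D1, 0.615 and 1.13 at D3, 0.345 and 0.385 at D5, and 0.282 and 0.207 at D7. All 4 libraries of D5 and D7 were below the 6 earlier ones.

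**Figure D5:**
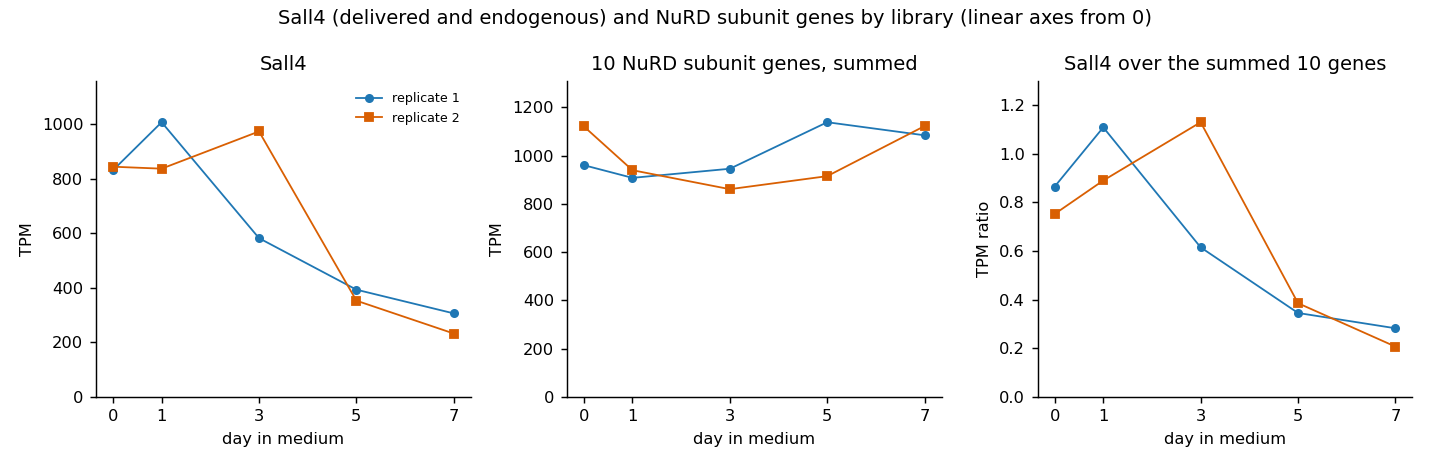
TPM of Sall4, delivered and endogenous together (left), the summed TPM of the 10 NuRD subunit genes (middle) and the ratio of the first to the second (right) against the day in medium, all on linear axes from 0, replicate 1 as circles and replicate 2 as squares. The subunit sum stays between 861 and 1138 TPM while the ratio is 0.615 to 1.13 up to D3 and 0.207 to 0.385 at D5 and D7.

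Of 19 genes for factors that bind or recruit NuRD 17 were tested. For D7 against D0 8 were called, 5 higher and 3 lower, where 17.9% of all tested genes were called. The median log2 change was 0.16, beside 0.060 for all tested genes. Lin28a, an RNA-binding protein of pluripotent cells, had 0 counts in both D0 libraries, where 3 counts would be 1.38 and 2.01 CPM, and was at 72.4 and 56.5 CPM at D7 (adjusted p 0.000615). Zfp296, a zinc finger factor of pluripotent cells, rose from a mean of 1.61 to 30.5 CPM (log2 change 4.31, SE 0.69). Sall1, a relative of Sall4 with the same recruitment motif, rose from 6.20 to 50.02 CPM (3.06, SE 0.55). Zfpm2, a cofactor of GATA factors, fell from 18.4 to 0.544 CPM (-4.55, SE 0.91). Sall4 was among the 3 lower genes. Sall1 lost its call without D0 replicate 1 (adjusted p 0.0510). Of the 8 called genes 3 (Lin28a, Zfp296 and Zfpm2) reached the read minimum in 0 libraries of their lower day and were tested only because of the days on which they were high, so the count was in part set by that minimum.

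Other complexes that hold HDAC1 and HDAC2 had 30 tested genes of 31 found by symbol. For D7 against D0 3 were called, all higher, and 5, all higher, with the replicate number. Among all tested genes the shares were 17.9% and 28.5%. Rcor2, a CoREST corepressor, rose from a mean of 36.6 to 164 CPM (log2 change 2.17, SE 0.28, adjusted p 0.000631). Sinhcaf, a SIN3 subunit, rose from 44.8 to 127 CPM and Zmym3, a CoREST partner, from 42.8 to 94.6 CPM, and both lost their call when any 1 of the D0 or D7 libraries was left out (adjusted p up to 0.185 and 0.203). With limma on log2 TPM Sinhcaf was not called either (adjusted p 0.0936). The median change of the list was 0.070, beside 0.060 for all tested genes.

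Among 8 tested genes of other histone deacetylases 3 were called for D7 against D0, beside 17.9% of all tested genes. Hdac6, a cytoplasmic deacetylase of tubulin, rose from a mean of 61.2 to 159 CPM (log2 change 1.38, SE 0.29), after 276 CPM at D1. Hdac11 rose from 2.22 to 13.9 CPM (2.55, SE 0.59), and Hdac7, a class IIa enzyme, fell from 266 to 68.6 CPM (-1.98, SE 0.50). Left-out libraries ended these calls in 2 of 10 fits for Hdac6, 4 for Hdac11 and 2 for Hdac7 (adjusted p up to 0.0849, 0.0912 and 0.172), and limma on log2 TPM that of Hdac11 (0.157). Hdac11 reached the read minimum in 0 of the D0 and D1 libraries and was tested only because of its level from D3 on. The list's median change was -0.089.

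Of 9 other methyl-CpG readers 1 was called, beside the same 17.9%: Zbtb4, which fell from a mean of 34.9 to 7.85 CPM (log2 change -2.10, SE 0.61, adjusted p 0.0363), a call lost without any 1 of the D0 or D7 libraries (up to 0.237) and on log2 TPM (0.211, limma). With the replicate number 4 of the 9 were called, 2 higher and 2 lower, beside 28.5% of all tested genes. Uhrf1, which guides maintenance methylation, was called over all days (adjusted p 0.0424, edgeR), beside 19.1% of all tested genes. It was at a mean of 129 CPM at D0 and 252 at D7, a difference that edgeR did not call. The any-day call of Uhrf1 held in 10 of 18 alternative fits. It was lost on log2 TPM (adjusted p 0.0747, limma) and with some libraries left out. Of 9 other CHD and ISWI remodellers 2 were called, again beside 17.9%. Chd7 rose from a mean of 24.6 to 108 CPM (2.14, SE 0.36, adjusted p 0.00273), in every fit with a library left out. Chd9 fell from 166 to 79.3 CPM (-1.06, SE 0.31, adjusted p 0.0391), a call lost in 5 of the 10 such fits (up to 0.228) and with upper-quartile scaling. The medians of these lists were -0.015 and 0.17.

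The genes whose profiles lay nearest to those of the widest-ranging subunits were found by the root-mean-square distance between centred log2 CPM profiles over the 10 libraries. For Chd3, whose own profile had a root-mean-square size of 0.47, these were Atp8b2 (0.13), Tns3 (0.19) and E2f7 (0.19). For Mta3, of size 0.43, they were Nxt1 (0.13), Dgcr6 (0.15) and 9430038I01Rik (0.16).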

How the data were processed

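Messenger RNA of 10 libraries, 2 for each of 5 days, was analysed. The submitters' processing notes name bcl2fastq, Bowtie2, RSEM and mm10, and give neither versions nor an annotation release. Whether counting used strand is not stated in the labels either. The deposited tables hold, per the file headers, RSEM's expected counts, TPM and FPKM for every gene. Expected counts, as the authors deposited them, are unnormalised estimates and were rounded before testing. The deposited TPM values gave levels across genes, paralogue ratios and an alternative fit (pseudocount 1). The deposited FPKM values served only as an alternative for the ratios. Which of the 2 library kits and 2 sequencing kits named in the labels a library had is not stated there. Fragments were shorter in replicate 1 (136 to 159 bases, from the effective lengths) than in replicate 2 (199 to 204), and mitochondrial genes took 2.21% to 5.48% of counts.

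GENCODE release M21 on GRCm38, the same assembly as mm10, gave names and 1-based coordinates (54723 of 54752 identifiers, 29 unmatched). No pair of replicates was close enough to be a repeat deposit (chi-square per gene from 7.75 at D0 to 23.0 at D5). By this measure the D5 replicates differed most, with D3 next at 13.1. The labels name no culture or embryo for a replicate, so the p-values reflect differences among these libraries, in part perhaps technical.

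The main test was edgeR 4.0.16 (quasi-likelihood F test, TMM scaling, minimum count 10, a term per day, all 10 libraries in 1 fit, R 4.3.3), with Benjamini-Hochberg adjustment over 12752 genes and a threshold of 0.05. SEs were derived from the log2 change and its F statistic, and the 95% intervals, approximate, from these SEs. Libraries with the same replicate number deviated together from their day means (correlations across genes of 0.273 to 0.436 in all 10 pairs of days). The numbers were therefore taken to pair the libraries. The fit with the replicate number stands beside a result where it changed the call, and beside some other results. Alternatives were DESeq2 1.42.0, limma 3.58.1 on voom weights and on log2(TPM + 1), other scalings and filters, and leaving out each library. Paralogue ratios were tested by exact permutation over days, on the F statistic, which has no direction, of log2 ratios of TPM or of counts plus 0.5. Near-identical transcripts were searched with BLAST 2.17.0 (at least 100 bases at 95%) for the 10 subunit genes, and not for the other genes named. The scripts were tested on simulated data.

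The subunit genes, the other lists and the tests were chosen with earlier results of these data known, so no list is independent evidence. Named genes were the 10 subunit genes, Sall4, the other subunits, at most 4 called genes of each further list by size of the D7 to D0 change, and the 3 nearest profiles of the 2 subunit genes with the widest range.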

Additional observations from a re-analysis of the deposited data

How the results depend on the processing

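Of the values for single genes, 402 of 423 kept direction and call under the scalings, filters, tools and replicate block tried, and 467 of 530 with a library left out. The count ratio within replicate numbers was added after seeing the data. The cause of the differences below was not tested, except that fewer libraries leave fewer degrees of freedom.

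With the replicate block the called genes went from 2436 to 4455 over all days, from 577 to 1350 (D1 against D0), from 7 to 206 (D3 against D1), from 9 to 421 (D5 against D3), from 0 to 20 (D7 against D5), from 2278 to 3629 (D7 against D0) and from 685 to 2351 (D7 against D3). The block called 2 NuRD subunit genes over all days and 1 each for D1 against D0, D5 against D3, D7 against D0 and D7 against D3, and it changed no other call of a subunit gene. Without a filter the counts of all genes were 4139 over all days, 1064 (D1 against D0), 272 (D3 against D1), 452 (D5 against D3), 176 (D7 against D5) and 1664 (D7 against D3). DESeq2 called 128, 151 and 26 genes for the 3 later steps, and 1 subunit gene for D1 against D0. Upper-quartile scaling gave 15 genes for D3 against D1, where the count was 11 with a minimum count of 30 and 1 with limma-voom, which called 4 for D5 against D3. On log2 TPM limma called 17 (D5 against D3), 1 (D7 against D5) and 435 (D7 against D3), and 0 subunit genes over all days.

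With 1 library left out the called genes ranged from 1243 to 3494 (all days), 120 to 908 (D1 against D0), 0 to 44 (D3 against D1), 0 to 295 (D5 against D3), 0 to 232 (D7 against D5), 841 to 2959 (D7 against D0) and 4 to 1557 (D7 against D3). The subunit genes called ranged from 0 to 1 over all days and for D1 against D0, where Chd3 was called without D5 replicate 1 or 2 (adjusted p 0.0417 and 0.0436), and stayed at 0 in the other comparisons. Permutation p values ranged from 0.00212 (without D3 replicate 2, adjusted 0.0111) to 0.137 for Chd3/Chd4 and from 0.00317 to 0.509 for Mta3/Mta1. On counts the exact permutation p of Chd3/Chd4 was 0.00106.

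Signs of D7 against D0 turned for 5 uncalled genes. Mta1 was at 0.054 with upper-quartile scaling. Hdac2 was at 0.013 with RLE scaling, 0.12 with upper-quartile scaling, 0.035 without a filter, 0.037 with a minimum of 30, 0.014 in DESeq2 and 0.084 on log2 TPM. With 1 library left out the changes ranged from -0.041 to 0.41 for Chd4, from -0.35 to 0.31 for Mta1, from -0.25 to 0.20 for Hdac2, from -0.50 to 0.19 for Mbd3 and from -0.10 to 0.68 for Gatad2a.

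Upper-quartile scaling moved the median D7 to D0 change of all genes by 0.13, and log2 TPM that of D7 against D3 by 0.11. Of the genes called for D1 against D0, 53.2% were higher, and 38.0% with limma-voom. For D5 against D3 the share was 88.9%, and 71.5% with DESeq2, 75% with limma-voom, 100% on log2 TPM and 68.4% with the block. Replicate 2 held 1329377 to 1492105 counts, and the SEs of D7 against D0 ran from 0.26 (Mta2) to 0.40 (Mbd3) among the subunit genes.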
